A study of Mus musculus with 18 samples.

Results

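Transcription factors that mark stem and progenitor cells were followed here through red cell formation, as nascent RNA. The 10 genes were Gata2, Runx1, Myb, Spi1, Meis1, Hlf, Mecom, Erg, Fli1 and Sox4. They were chosen by symbol, and each matched 1 of the 54232 gene identifiers in the deposited count table (Spi1 under its older symbol Sfpi1). This choice, and that of the gene lists used below, was made with earlier results of these data known. Shares over all genes given beside their counts are therefore a description and no test of a set. All 10 passed the filter on low counts. Cells came from the livers of C57BL/6 mouse embryos at e12.5-e13.5 (days of gestation). After sorting they were kept for 6 h in erythroid medium, as the paper states. They were then labelled for 45 min with 500 µM 4-thiouridine (4sU), a uridine analog that enters newly made RNA. The labelled RNA was sequenced (4sU-seq). Levels therefore describe the cells after this culture, and need not equal those at sorting. There were 6 sorted populations with 3 libraries each. Of these, 5 were lineage negative and were ordered by the surface proteins CD71, the transferrin receptor, and Ter119, a red cell surface antigen. S0-Low cells were CD71 low or negative (the labels give both) and had no Ter119, S0-Medium cells had intermediate CD71, S1 cells had high CD71 without Ter119, S2 cells had high CD71 with intermediate Ter119, and S3 cells had high CD71 with high Ter119. The remaining population, Lin+, carried markers of other blood lineages (the panel held CD41, CD45R, CD3e, CD11b and Ly-6G/6C). No population was genetically altered. The comparisons ask in which order these genes were lost over the 5 erythroid populations, and how high they stood in Lin+.

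These factors act in stem cells and early progenitors and are mostly turned down as red cells form. GATA2, RUNX1, ERG and FLI1 bind many of the same enhancers in blood progenitors, together with TAL1, LYL1 and LMO2, and this group is known as the heptad. Red cell formation is known for the exchange of GATA2 by GATA1 at shared sites, for the mutual opposition of GATA1 and PU.1 (the product of Spi1), and for the opposition of KLF1 and FLI1, which favour red cells and megakaryocytes respectively. MYB keeps erythroid progenitors dividing and is lost late. HLF, MECOM and MEIS1 are best known from stem cells, and SOX4 from lymphoid and other progenitors.

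Total counts per library ran from 9452476 (S0-Low replicate 3) to 40567976, with a median of 33174876. Levels are given as normalized counts, which are counts scaled to the mean library size after TMM, edgeR's correction for differences in composition. A count of 3 per library, the limit that a count of 0 allows, corresponded to 1.99 to 7.97 normalized counts. Erythroid markers (7 genes) summed to 430 to 931 CPM (counts relative to the library total) in S0-Low and to 20168 to 25840 in S3, and stem and progenitor markers (8 genes) to 752 to 1413 in S0-Low and 0 to 2.84 in S3. In Lin+, which the labels call erythroblasts like the other populations, the erythroid markers summed to 240 to 305 CPM. These are bulk populations, in which fewer cells of a type and less RNA per cell cannot be told apart.

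A set of 6 promoters shows the sequence around the starts of Mecom, Hlf, Erg and Runx1. The mean shares of S0-Low were smallest for the first 3 up to S2, and largest for Runx1 up to S3. Runx1 was lower than in S0-Low from S1 on as well. Shown are both annotated starts of Mecom, the Hlf start, 1 of the 3 Erg starts and both Runx1 starts. The Erg start is shown because it alone of the 3 held a match to any motif searched. Each runs from 250 bases before to 50 bases after a transcription start in RefSeq on build GRCm38.p6 and is read on the gene's strand, here always minus. Capitals mark 3 motifs on either strand, none overlapping another here. GATA was searched as AGATAA or as AGATAG, and also with the first letter changed to T. ETS, the family of Erg, Fli1 and Spi1, was searched as AGGAAG or with the first letter changed to C. RUNX was searched as TGTGGT alone.
Mecom, chr3:30509710-30510009: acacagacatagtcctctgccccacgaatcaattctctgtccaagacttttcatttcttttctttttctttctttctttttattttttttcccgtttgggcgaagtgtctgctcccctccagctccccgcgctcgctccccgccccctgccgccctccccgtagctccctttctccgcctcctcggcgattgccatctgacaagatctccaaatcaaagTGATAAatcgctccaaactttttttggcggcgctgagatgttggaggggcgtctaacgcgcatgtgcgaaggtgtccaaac
Mecom, chr3:30013155-30013454: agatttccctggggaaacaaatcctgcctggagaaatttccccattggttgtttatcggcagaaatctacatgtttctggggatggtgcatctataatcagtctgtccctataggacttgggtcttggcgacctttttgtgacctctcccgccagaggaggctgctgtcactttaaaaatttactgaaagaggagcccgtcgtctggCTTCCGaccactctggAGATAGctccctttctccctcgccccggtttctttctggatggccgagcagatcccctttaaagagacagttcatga
Hlf, chr11:90390868-90391167: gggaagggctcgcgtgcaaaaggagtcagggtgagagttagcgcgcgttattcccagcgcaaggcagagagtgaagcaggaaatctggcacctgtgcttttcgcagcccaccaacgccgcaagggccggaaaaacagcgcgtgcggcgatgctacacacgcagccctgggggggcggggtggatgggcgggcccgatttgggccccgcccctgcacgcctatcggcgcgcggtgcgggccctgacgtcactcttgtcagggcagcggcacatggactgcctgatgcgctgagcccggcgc
Erg, chr16:95459299-95459598: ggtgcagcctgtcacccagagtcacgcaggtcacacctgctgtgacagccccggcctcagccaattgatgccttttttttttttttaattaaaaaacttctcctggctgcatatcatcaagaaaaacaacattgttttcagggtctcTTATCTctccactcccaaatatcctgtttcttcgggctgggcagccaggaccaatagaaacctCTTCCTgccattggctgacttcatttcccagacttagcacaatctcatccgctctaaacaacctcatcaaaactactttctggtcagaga
Runx1, chr16:92826025-92826324: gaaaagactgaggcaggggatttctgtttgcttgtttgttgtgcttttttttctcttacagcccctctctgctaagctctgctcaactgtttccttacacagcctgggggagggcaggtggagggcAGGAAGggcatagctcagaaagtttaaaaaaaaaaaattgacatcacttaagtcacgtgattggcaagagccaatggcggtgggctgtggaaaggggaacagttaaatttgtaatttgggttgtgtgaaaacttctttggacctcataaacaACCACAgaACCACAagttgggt
Runx1, chr16:92697280-92697579: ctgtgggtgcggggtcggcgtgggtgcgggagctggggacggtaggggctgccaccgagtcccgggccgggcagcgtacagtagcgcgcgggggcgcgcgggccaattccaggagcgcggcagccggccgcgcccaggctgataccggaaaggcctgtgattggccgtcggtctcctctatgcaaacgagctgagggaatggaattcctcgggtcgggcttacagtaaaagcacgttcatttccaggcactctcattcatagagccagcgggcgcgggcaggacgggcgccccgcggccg
RefSeq promoters were at hand for 8 of the 10 genes (13 promoters in all). The GATA letters lay in 3 of these 13, the 3 shown for Mecom and Erg, against 29.8% of 32851 mouse promoters of the same length. The ETS letters lay in 5 of 13, against 46.5%, and the RUNX letters in 2 of 13, against 16.8%, one of them the upstream of the 2 Runx1 promoters shown, which held them 2 times just after its start. The Hlf promoter and the second Runx1 promoter held none of the motifs searched. The letters of an E-box (CAGCTG or, as a separate word, CAGATG) lay in 4 of 13, against 30.6%, and those of a MEIS site (TGACAG) in 2 of 13, against 19.2%. A match describes letters and not a bound site.

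Mecom, Hlf and Erg kept the smallest shares of their S0-Low means in S0-Medium, S1 and S2, although Erg was not apart from Sox4 in S0-Medium, nor Hlf from Meis1 in S1 and S2. All 3 were transcribed in S0-Low, and little or nothing of them was counted once Ter119 appeared. Mecom, which encodes the zinc-finger protein EVI1 (chromosome 3, 29951296 to 30509759, GRCm38), stood at 3844, 1037 and 1434 normalized counts in the 3 S0-Low libraries and at 293, 23.1 and 13.1 in S0-Medium. The S1 libraries had 22.8, 3.34 and 0, those of S2 2.71, 0 and 0 and those of S3 4.84, 1.44 and 7.35. Every S0-Medium library lay below every S0-Low library, and replicate 1 was the highest in both. The S0-Medium mean was 5.22% of the S0-Low mean, and it was 0.862% without S0-Medium replicate 1 and 8.89% without S0-Low replicate 1, both shifts of over 1.5 times. In S2 the 3 libraries held 2 counts together, so that the ratio of S0-Low to S2 was 2333, with an exact Poisson 95% interval of 646 to 19260 from those counts. The 7 counts of S3 gave a ratio of 463.

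Hlf encodes a leucine-zipper factor of the PAR family, used as a marker of stem cells (chromosome 11, 90336535 to 90390917). It had normalized counts of 2990, 1043 and 1782 in S0-Low. The S0-Medium libraries had 291, 92.5 and 69.5, and those of S1 39.0, 20.0 and 10.7. In S2 it was counted in replicate 2 alone (6 counts), and in S3 in no library. Each step down to S1 left no overlap between libraries. Of the S0-Low mean, S0-Medium kept 7.79% (4.18% without its replicate 1) and S1 1.2%, and S3 was at least 340-fold lower than S0-Low, taking 3 counts per library as the limit.

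Erg encodes an ETS factor needed to maintain stem cells (chromosome 16, 95359169 to 95586600). Its normalized counts were 3396, 1469 and 4492 in S0-Low. The S0-Medium libraries had 850, 135 and 634, and those of S1 3.25, 10.8 and 17.1. Between S0-Medium and S1 the mean went from 17.3% to 0.333% of S0-Low, and the libraries of the 3 populations did not overlap. S2 held 2 counts in all (a ratio of 3456, exact Poisson 95% interval 957 to 28534) and S3 none, at least 547-fold below S0-Low.

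**Figure D1:**
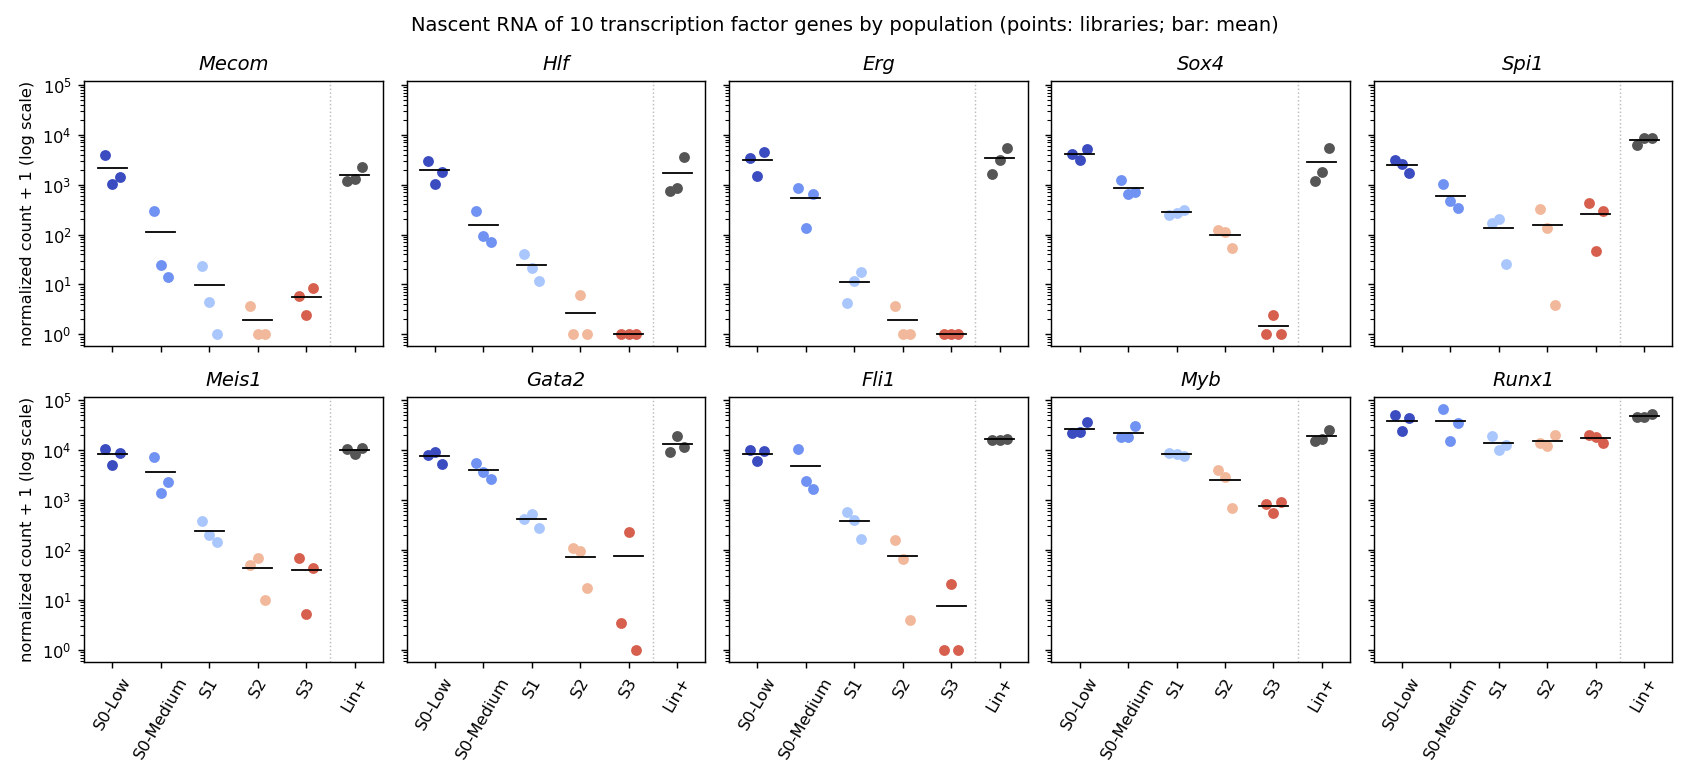
Each panel plots 1 gene, with the normalized count plus 1 on a log axis against the sorted population (points are the 3 libraries, bars the means, and the dotted line separates Lin+). Runx1 is at 10078 or more in every library, Hlf and Erg are at 0 in S3, and every gene stands above its S3 libraries in Lin+.

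Meis1, Gata2, Fli1, Spi1 and Sox4 kept 20.9% to 56.1% of their S0-Low means in S0-Medium and 2.89% to 6.73% in S1. Meis1, a homeobox partner of HOX proteins (chromosome 11, 18880428 to 19019651), stood at 10855, 5126 and 8811 in S0-Low. The S0-Medium libraries had 7436, 1427 and 2343, and those of S1 375, 199 and 143. S2 (48.7, 69.9 and 8.81) and S3 (67.8, 4.33 and 42.3) overlapped. S0-Medium overlapped S0-Low through replicate 1 alone, and every S1 library lay below every S0-Medium library. The means were 45.2%, 2.89%, 0.514% and 0.462% of S0-Low from S0-Medium on to S3.

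Gata2, the GATA factor of progenitors and mast cells (chromosome 6, 88193891 to 88207032), stood at 8057, 9368 and 5374 in S0-Low and at 5584, 3733 and 2605 in S0-Medium, which overlapped. The S1 libraries had 420, 541 and 271, all lower, and those of S2 107, 92.9 and 16.1, lower again. In S3, replicate 2 alone held 158 counts (228 normalized), while replicates 1 and 3 held 1 and 0. The S3 mean of 76.7 ± 131 (SD, n = 3) therefore rested on 1 library, and its fitted change from S0-Low, -6.59 on the log2 scale, was -12.64 without that library. Leaving S3 replicate 2 aside, Gata2 in S3 lay below every S2 library.

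Fli1, an ETS factor of megakaryocytes, endothelium and stem cells (chromosome 9, 32422204 to 32543432), had normalized counts of 10211, 6126 and 9486 in S0-Low and of 10439, 2381 and 1678 in S0-Medium. In S1 they were 571, 403 and 169, in S2 158, 64.7 and 2.94, and in S3 0, 20.2 and 0. S0-Medium replicate 1 stood above all S0-Low libraries and the other two below all of them. Its S0-Medium mean was 56.1% of S0-Low with all libraries and 23.6% without replicate 1. In S3, 14 counts in 1 library were all that remained, a ratio of 1279.

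Spi1, the master gene of myeloid cells (chromosome 2, 91082374 to 91115759), stood at 3076, 2546 and 1697 in S0-Low. The S0-Medium libraries had 1011, 460 and 340, and those of S1 171, 201 and 24.6, with no overlap at either step. The S0-Medium mean was 24.7% of S0-Low, and 16.4% without replicate 1. No further decline was seen. S2 had 325, 132 and 2.94 and S3 434, 44.7 and 290, and the 3 populations overlapped. The S3 mean was 10.5% ± 8.06 (SD over the 3 libraries) of S0-Low, a 9.52-fold difference. With library totals in place of TMM it was 6.03%.

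Sox4, an HMG-box factor of progenitors in many tissues (chromosome 13, 28948919 to 28953699) had 4100, 3067 and 5198 normalized counts in S0-Low. The S0-Medium libraries stood at 1230, 645 and 707, those of S1 at 247, 270 and 315 and those of S2 at 120, 112 and 52.8. S3 held 1 count in 3 libraries, a ratio to S0-Low of 8577 (exact Poisson 95% interval 1539 to 338769). No libraries overlapped at any of the 4 steps, as for no other of the 10 genes. Of its 31-base words, 8.26% also occurred in another annotated gene, against at most 0.405% for the other genes. The older annotation used holds another entry named Sox4, which overlaps this gene on the same strand and is absent from the count table. Whether the shared words lie in that entry was not examined, so that counts of Sox4 may be shared.

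Myb and Runx1 kept the largest shares of their S0-Low means in S1 and S2, and in S3 Spi1 (10.5%) stood above Myb, with overlapping libraries. Myb (chromosome 10, 21124930 to 21160984) had normalized counts of 22212, 23708 and 36160 in S0-Low and of 18607, 18326 and 31002 in S0-Medium. They were 8772, 8455 and 7717 in S1, 3984, 2876 and 700 in S2, and 838, 562 and 901 in S3. The S0 populations overlapped, S1 lay wholly below them and S2 wholly below S1, while S3 overlapped S2 through its replicate 3. In means, 82.8%, 30.4%, 9.21% and 2.80% of S0-Low were kept.

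Runx1, the core-binding factor that opens definitive blood formation (chromosome 16, 92601466 to 92826074), was the only one of the 10 that never reached 10% of S0-Low. It stood at 50841, 23927 and 43763 in S0-Low and, with a wide spread, at 68209, 15237 and 35090 in S0-Medium. The S1 libraries had 19194, 10078 and 12861, those of S2 13938, 12221 and 20121 and those of S3 20583, 18780 and 14292. S1, S2 and S3 overlapped one another and lay wholly below S0-Low. The S3 mean was 45.3% of S0-Low after TMM and 25.8% with library totals in place of TMM, a difference of over 1.5 times, and the S2 mean was 39.0% and 30.6%.

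**Figure D2:**
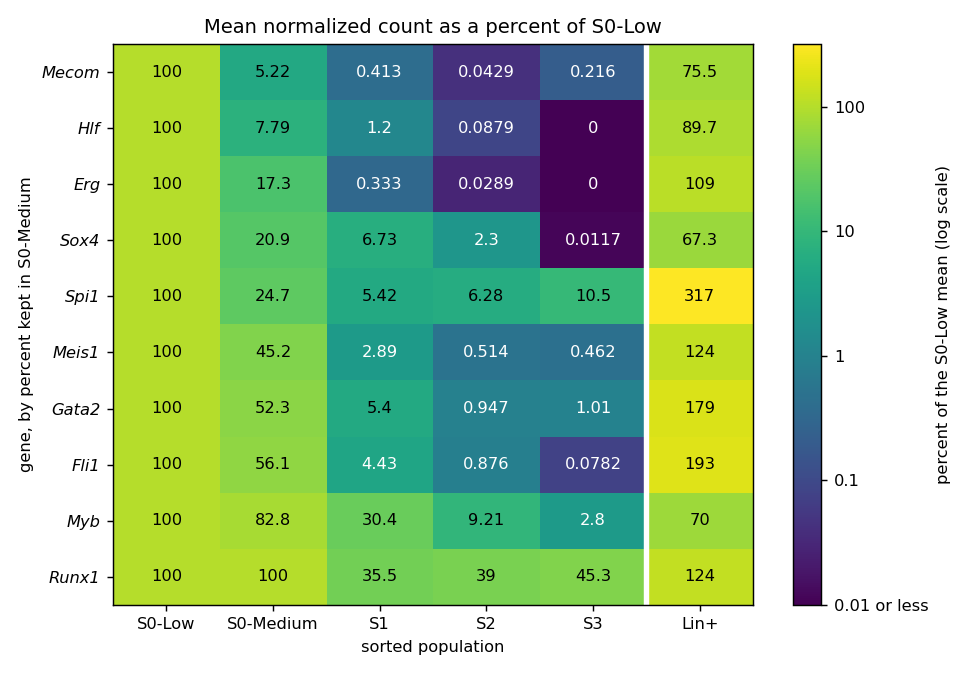
The grid gives the mean normalized count of each gene (rows) in each population (columns) as a percent of its S0-Low mean, coloured on a log scale. Mecom and Hlf are under 10% in S0-Medium, 8 genes are in S1, and Runx1 stays between 35.5% and 45.3% from S1 to S3.

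The order of loss can be read from the first population whose mean was at or under a given percent of S0-Low. At 50%, 6 of the 10 genes were there in S0-Medium (Erg, Hlf, Mecom, Meis1, Sox4 and Spi1) and all 10 in S1. At 10%, Hlf and Mecom were there in S0-Medium, 8 genes in S1 (all but Myb and Runx1) and Myb joined in S2. Spi1 stood at 10.5% in S3 after TMM and at 6.03% with library totals, so its side of the 10% line depended on the scaling. At 1%, Erg and Mecom were there in S1 and Fli1, Gata2, Hlf and Meis1 in S2, while Sox4 followed in S3. Neighbours in this order mostly could not be separated. In S0-Medium no gene's share lay apart from the next in every library, in S1 only Sox4 (6.73%) lay apart from Myb (30.4%), and in S2 only Myb lay apart from Runx1, as Spi1 did in S3. In S0-Medium, replicate 1 was the highest library for 9 of the 10 genes, and without it Gata2 would be at 41.7%, Meis1 at 22.8% and Runx1 at 63.7%.

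Summed markers of 4 other cell types were lower from the first step on. Neutrophil markers summed to 520 to 880 CPM in S0-Low, 11.8 to 189 in S0-Medium, 0.577 to 1.26 in S1 and 0 to 0.977 in S3. Macrophage and monocyte markers summed to 56.3 to 140 CPM, then 9.11 to 37.7 and then 2.83 to 3.56 over S0-Low, S0-Medium and S1, and mast cell and basophil markers to 31.5 to 58.6, 2.29 to 10.4 and 0.252 to 0.821. Endothelial markers went from 98.4 to 342 CPM to 27.3 to 75.8 in S0-Medium, 4.68 to 16.9 in S1 and 5.40 to 9.34 in S3. Megakaryocyte markers (91.9 to 235, then 104 to 188) and B cell markers (18.7 to 32.3, then 3.81 to 32.3) overlapped at that step and were lower in S1, at 20.2 to 42.9 and 0.397 to 2.05. The part of these cell types in the loss of the 10 genes was not tested.

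Levels between genes were compared per kilobase of the longest transcript. In S0-Low, Myb (7244 ± 2028 normalized counts per kb, SD, n = 3) and Runx1 (5550 ± 1960) overlapped and lay above all others. Fli1 (2770), Meis1 (2411) and Gata2 (2345) followed and overlapped. Spi1 (1200) lay below all libraries of Fli1 and Gata2 and overlapped Meis1. Erg (932), Sox4 (860), Mecom (370) and Hlf (338) closed the order, each overlapping the next.

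Against S0-Low, 6 of the 10 genes fell in S1 at an adjusted p under 0.05 (edgeR quasi-likelihood test, two-sided, Benjamini-Hochberg over 16555 genes), against 1.95% of all genes tested. They were Erg (log2 change -8.23, SE 1.10, adjusted p = 0.00267), Sox4 (-3.90, SE 0.52, adjusted p = 0.00255), Meis1 (-5.12, SE 0.90, adjusted p = 0.00792), Hlf (-6.38, SE 1.16, adjusted p = 0.0113), Mecom (-7.88, SE 1.65, adjusted p = 0.0174) and Fli1 (-4.50, SE 1.09, adjusted p = 0.0368). Gata2 (-4.22, adjusted p = 0.0654), Spi1 (-4.21, adjusted p = 0.0717), Myb (-1.73, adjusted p = 0.0621) and Runx1 (-1.50, adjusted p = 0.0980) did not pass by edgeR. All 10 genes had an unadjusted p under 0.05 and a lower level, against 9.98% of all genes, and in all 10 every S1 library lay below every S0-Low library, against 14.5%. With the replicate number as a block, all 10 passed, against 3.23% of all genes. The count was 3 without S0-Low replicate 1, without S1 replicate 2 or without S1 replicate 3, where Hlf, Mecom and Fli1 no longer passed. Fli1 lost its call without any 1 of the 6 libraries (adjusted p 0.0552 to 0.170, edgeR).

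In S2, 9 of the 10 genes were lower than in S0-Low by the same test, against 6.92% of all genes, and in S3 the same 9, against 22.4%. Runx1 was the exception in both, at a log2 change of -1.36 (SE 0.46, adjusted p = 0.0686, edgeR) in S2 and -1.15 (SE 0.46, adjusted p = 0.0615, edgeR) in S3. Runx1 did pass in S2 with RLE scaling (adjusted p = 0.0387, edgeR), library totals (0.0229), no filter (0.00298), all 18 libraries (0.0420), DESeq2 (0.0134) and without S0-Low replicate 2 (0.0453). It also passed in S3 with RLE scaling or library totals, without the filter or with at least 10 counts in every library, over all 18 libraries, by DESeq2 and without S0-Low replicate 2. Spi1 (-3.26, SE 1.14, adjusted p = 0.0367, edgeR) lost its S3 call without S0-Low replicate 1 (adjusted p = 0.0775), S0-Low replicate 2 (0.0655), S3 replicate 2 (0.0937) or S3 replicate 3 (0.0800), and its S2 call without any 1 of the 3 S0-Low libraries, S2 replicate 2 or S2 replicate 3 (0.0551 to 0.115). The median log2 change of the 10 genes in S3 was -8.33, or -8.10 with Hlf and Erg set at their bounds, beside -0.54 over all genes. That shift of all genes was -0.68 with RLE scaling and -1.36 with library totals. A test for any change over the 5 populations called all 10 genes, against 24.6% of all genes. Runx1 lost that call without S0-Low replicate 1, S1 replicate 2, S1 replicate 3, S2 replicate 1 or S2 replicate 2 (adjusted p 0.0503 to 0.0625, edgeR) and Spi1 without S0-Low replicate 1 or 2 (0.0654 and 0.0517).

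Single steps showed less. From S0-Low to S0-Medium no member of the 10 passed (nor did any gene, 0%). Hlf, Mecom, Erg and Sox4 had an unadjusted p under 0.05, against 1.47% of all genes that were lower at that p, and DESeq2 called 2 of the 10, against 0.154% of all genes. Every S0-Medium library lay below every S0-Low library for 5 of the 10 (those 4 and Spi1), against 6.64%. From S0-Medium to S1, 0 of 10 passed by edgeR, and neither did any gene (0%). Of the 10, 9 had an unadjusted p under 0.05 (all but Spi1), against 5.18%, while DESeq2 called 5, against 2.46%. With the replicate block Meis1 and Erg passed (against 0.175%), both at an adjusted p of 0.0318 by edgeR. From S1 to S2, 0 of 10 passed by edgeR (again 0% of all genes) and 1 by DESeq2 (against 0.835%). At an unadjusted p under 0.05 there were 7, against 3.03%. From S2 to S3, Sox4 (adjusted p = 0.000175, edgeR) and Myb (log2 change -1.71, SE 0.47, adjusted p = 0.0327, edgeR) fell, against 6.09% of all genes. The block called the same 2, against 11.3%. Myb lost this call with RLE scaling (log2 change -1.58, adjusted p = 0.0551, edgeR) and without any 1 of the 6 libraries other than S2 replicate 3 (adjusted p 0.0663 to 0.168, edgeR). Sox4 kept it in each of these fits. Fli1 passed with library totals (adjusted p = 0.0440, edgeR), without the filter, by DESeq2 (0.0378) and without S2 replicate 3 or S3 replicate 2, and Gata2 without S3 replicate 2.

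Ratios of counts within a library do not depend on its scaling. Gata2 over Gata1, its erythroid partner, stood at a mean log2 of 0.82 ± 1.05 (SD, n = 3) in S0-Low and at -0.61, -4.30 and -7.58 in S0-Medium, S1 and S2. Spi1 over Gata1 went from -0.83 ± 1.12 to -3.42, -6.35, -7.62 and -6.40 from S0-Medium on to S3, and its S1, S2 and S3 libraries overlapped. Fli1 over Klf1 went from 1.06 ± 0.80 to -1.10, -5.08 and -8.91 in S0-Medium, S1 and S2. In S3, Gata2 held 1, 158 and 0 counts and Fli1 0, 14 and 0, so that most of those ratios are set by the 0.5 added and no mean is given. The S3 libraries with 158 and 14 counts were at -6.49 and -10.88. For these ratios every S1 and every S3 library lay below every S0-Low library, and an exact permutation test, two-sided, gave p = 0.1 for each (adjusted p = 0.114 over the 8 comparisons made), the smallest that 3 against 3 allows. Erg over Fli1 was -1.58 ± 0.49 in S0-Low and -5.24 ± 2.01 in S1, with no overlap and the same exact p. In S3 both genes were at or near 0 and their ratio holds no information.

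**Figure D3:**
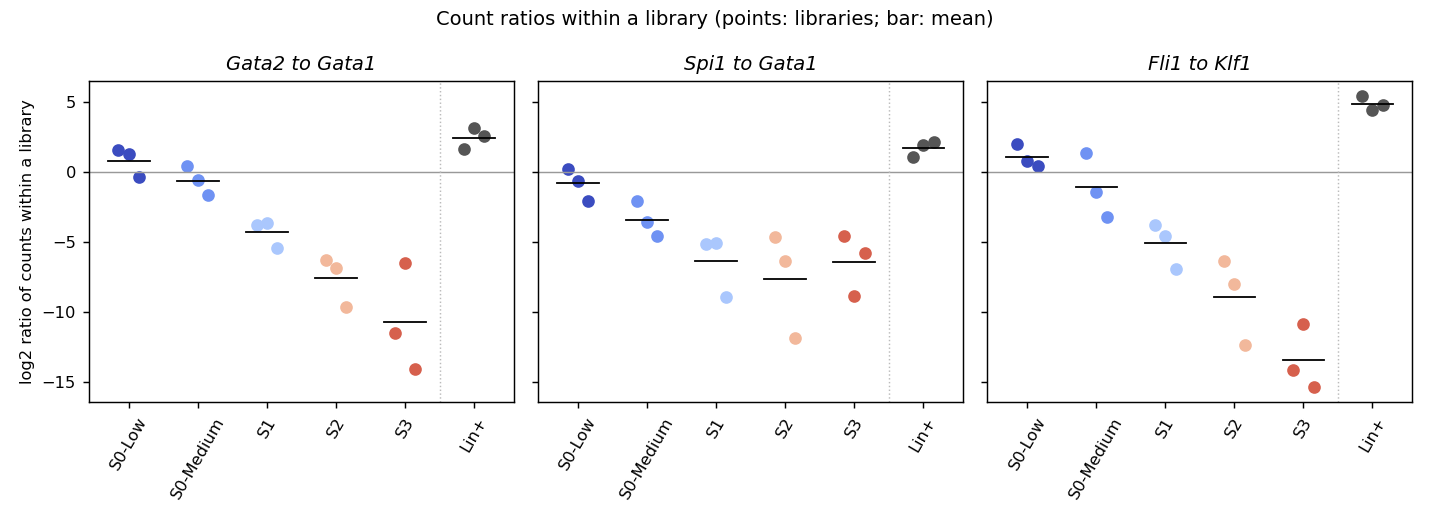
The plot gives the log2 ratio of counts (plus 0.5) within each library against population for Gata2 to Gata1, Spi1 to Gata1 and Fli1 to Klf1 (points are libraries, bars means). In S3, libraries with no count of Gata2 or Fli1 are placed by the 0.5 added. The S3 bars of Gata2 to Gata1 and Fli1 to Klf1 therefore rest largely on that 0.5 and are not read. Each mean is below 0 from S0-Medium to S2 (that of Spi1 to Gata1 in S0-Low and S3 too). Each is above 0 in Lin+, at 2.45, 1.70 and 4.89.

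Partners of these factors were followed as well. Of 9 genes that act with GATA2, RUNX1, ERG and FLI1 in shared complexes, none passed in S1 by edgeR (Cbfa2t3 alone had an unadjusted p under 0.05, and with library totals 1 of the 9 fell, against 2.32% of all genes), and in S3, 4 rose (Tal1, Lyl1, Lmo2 and Tcf3, against 13.4% of all genes) and 2 fell (Cbfb and Lmo4, a share near the 22.4% of all genes that fell), with a median log2 change of 0.13. With library totals 2 rose and 4 fell, with a median of -0.75, beside the -1.36 of all genes, of which 6.98% rose and 37.6% fell at this scaling, so that the falls again lay near the share over all genes. Tal1, a helix-loop-helix factor of the complex, went from a mean of 8610 ± 3023 normalized counts (SD, n = 3) in S0-Low to 56910 ± 9248 in S3 (log2 change 2.72, SE 0.36, adjusted p = 6.12e-05, edgeR). Lmo2, the bridging LIM protein, went from 13714 to 38990 (1.51, SE 0.47, adjusted p = 0.0229, edgeR). The co-repressor Cbfa2t3 stood at 18123 and 19864 (adjusted p = 0.792, edgeR). Cbfb, whose product does not bind DNA itself but strengthens the binding of RUNX1, named here after its values were seen, had means of 2425, 1500, 465, 141 and 18.3 over the 5 populations, and in S3 2 of 3 libraries held no count (adjusted p = 0.00565 in S3, edgeR). The log2 changes of Runx1 and Cbfb in S3 against S0-Low were -1.15 and -6.97, the latter with 38 counts in 1 S3 library alone.

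Other stem and progenitor factors were mostly lower late as well. Of 18 tested, 8 fell in S1 (against 1.95% of all genes) and 13 in S3 (against 22.4%), and none rose, with a median log2 change of -8.17 in S3 (-6.41 with genes at 0 set at their bound). Etv6, an ETS repressor, went from 21457 to 3904 in S1 and 360 in S3 (log2 change -5.90, adjusted p = 0.000855, edgeR), and Ikzf1, a lymphoid zinc-finger factor, from 18701 to 9946 in S3 (-0.91, adjusted p = 0.0178, edgeR). Bcl11a, the repressor of fetal globin, stood at 14630 in S0-Low and 19742 ± 16117 in S3 (adjusted p = 0.515, edgeR). Of 18 paralogs of the 10 genes, 9 fell (against 22.4% of all genes) and 3 rose in S3 (Gata1, Mybl1 and Mybl2, against 13.4%), with a median of -4.45 (-2.82 with bounds). With library totals 11 fell (against 37.6%) and 1 rose (against 6.98%). The numbers that rose lay near the shares over all genes. Gata1 went from 4535 in S0-Low to 15747 in S3 (1.79, SE 0.42, adjusted p = 0.00392, edgeR) and Mybl2, the cell-cycle relative of Myb, from 3134 to 9914 (1.66, adjusted p = 0.0212, edgeR), while Elf1, an ETS relative, stood at 11922 and 13229 (adjusted p = 0.779, edgeR).

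Of 9 erythroid factors tested, 8 rose in S3 (against 13.4% of all genes) and none fell (5 rose with library totals, against 6.98%), with a median of 2.72. Foxo3, a regulator of late maturation, went from 12513 to 114841 (3.20, adjusted p = 0.00017, edgeR), Nfe2, a leucine-zipper factor of globin loci, from 9432 to 66940 (2.83, adjusted p = 0.00372, edgeR), and Klf1 from 4374 to 33329 (2.93, adjusted p = 0.000782, edgeR). Of 14 genes known as targets or companions of MYB, PU.1 and GATA2, 8 fell in S1 (against 1.95% of all genes) and 11 in S3 (against 22.4%), and none rose, with a median of -8.73 (-7.40 with bounds). Kit, the stem cell factor receptor, had means of 15587, 14351, 6957, 2375 and 27.9 over the 5 populations (S3 log2 change -9.02, adjusted p = 0.000101, edgeR), with all of its 58 S3 counts in 1 library. Myc went from 23077 to 2086 (-3.47, adjusted p = 0.000171, edgeR) and the cyclin gene Ccnd2 from 6142 to 235 ± 239 (-4.71, adjusted p = 0.0379, edgeR).

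In Lin+, all 10 genes were transcribed, with means of 67.3% (Sox4, 36.5% without Lin+ replicate 3) to 317% (Spi1) of S0-Low. None of them differed from S0-Low by edgeR (0.715% of 17755 genes tested did), by an unadjusted p under 0.05 (9.85%) or by DESeq2 (3.66%). The intervals are wide, and this does not show equal levels. Spi1 stood at 6329, 8418 and 8478 normalized counts and Fli1 at 16245, 16314 and 17171. These 2 were the only ones of the 10 whose Lin+ libraries all lay above the S0-Low libraries, against 15.7% of all genes. Their log2 changes were 1.67 (SE 0.95, adjusted p = 0.658, edgeR) and 0.95 (SE 0.87, adjusted p = 0.906, edgeR).

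Gata2 stood at 9306, 19628 and 11771 in Lin+, Meis1 at 10626, 8638 and 11393, and Runx1 at 46803, 47157 and 53122. Their Lin+ means were 179%, 124% and 124% of S0-Low, with overlapping libraries. Myb (15703, 16724 and 25018) and Sox4 (1205, 1800 and 5314) stood at 70.0% and 67.3%, the latter resting on replicate 3. Mecom (1192, 1318 and 2261) and Hlf (737, 848 and 3630) stood at 75.5% and 89.7%, and Erg (1655, 3145 and 5381) at 109%. Hlf was at 40.9% without Lin+ replicate 3, and Mecom at 129% without S0-Low replicate 1. For 9 of the 10 genes Lin+ replicate 3 was the highest Lin+ library. Against S3, all 10 were higher in Lin+, against 28.2% of all genes, and in all 10 the libraries did not overlap, against 36.8%.

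Summed markers of 5 other cell types stood higher in every Lin+ library than in every S0-Low library. Neutrophil markers (7 genes) summed to 3528 to 5956 CPM in Lin+ and 520 to 880 in S0-Low, and macrophage and monocyte markers (8 genes) to 945 to 1296 and 56.3 to 140, although Itgam, which encodes the CD11b of the sorting panel, was listed at 0. Itgam was at 0 in all 18 libraries, as were Tpsb2, a mast cell tryptase gene, and Zfpm1, a cofactor of GATA1 in red cells, so that these zeros are not particular to Lin+. Megakaryocyte markers (7 genes) summed to 369 to 930 CPM against 91.9 to 235, mast cell and basophil markers (6 genes) to 312 to 633 against 31.5 to 58.6, and B cell markers (6 genes) to 43.4 to 85.7 against 18.7 to 32.3. Endothelial markers (7 genes) overlapped, at 210 to 371 against 98.4 to 342. T and NK cell markers (6 genes) overlapped too, at 1.92 to 12.7 against 1.76 to 14.8, and hepatocyte markers (6 genes) were lower in every Lin+ library, at 1.15 to 4.42 against 6.97 to 11.5. Tests of single markers are not counted, since some (S100a8 and Ngp among the neutrophil markers) held few or no counts in S0-Low and passed the filter on low counts through Lin+. Stem and progenitor markers were also present in Lin+, at 485 to 962 CPM. The part of these cell types in the levels of the 10 genes was not tested.

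**Figure D4:**
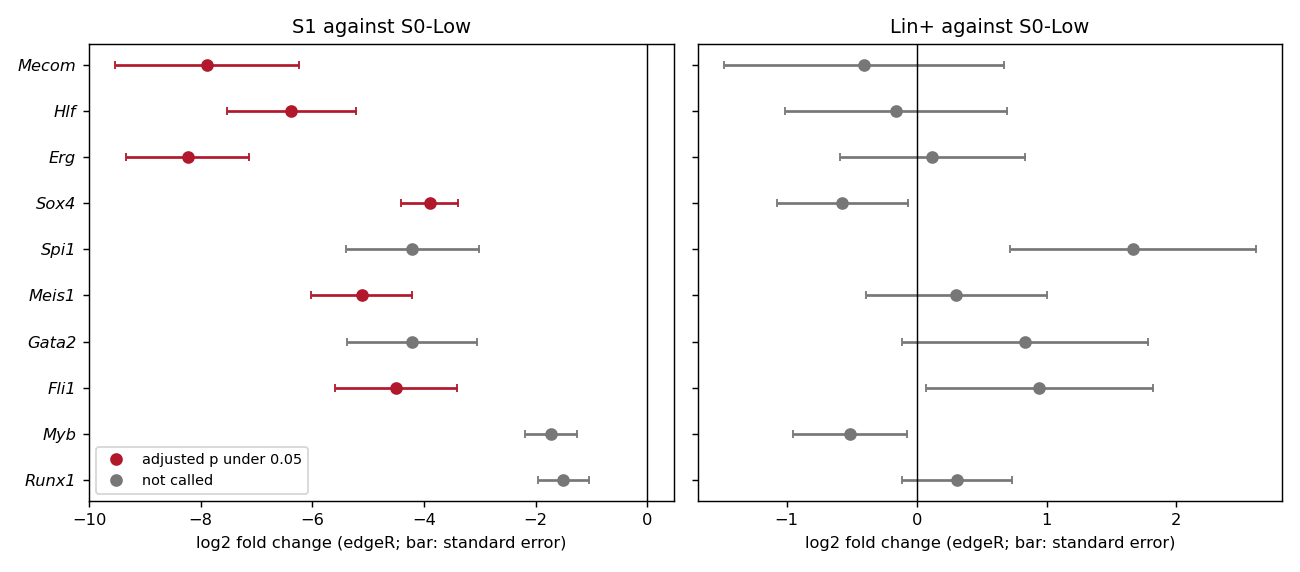
Points are the log2 fold changes of the 10 genes for S1 (left) and Lin+ (right) against S0-Low with their standard errors, by edgeR, and red points passed an adjusted p of 0.05. The 6 genes that passed in S1 lie between -8.23 and -3.90, and no gene passed in Lin+, where the largest change is 1.67 for Spi1.

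Each gene's pattern was also matched with that of every other well-counted gene, by Pearson's r of log2(CPM + 0.5) over the 18 libraries (12808 genes searched). Libraries of a population share its cells, so that these values describe likeness only. Fli1 was closest to Celf2 (r = 0.995) and Slc24a3 (0.991), Erg to Ramp1 (0.993) and Il16 (0.992), Meis1 to Dock2 (0.989) and Spns3 (0.985), and Mecom to Tspan2 (0.986). Sox4 was closest to Rtkn2 (0.985) and Tgfbr2 (0.973), Hlf to Pdgfrb (0.984) and Atp10a (0.979), Gata2 to Tec (0.981) and Plek (0.980), and Myb to Tcea2 (0.977) and Ttc21b (0.970). The 2 most distant from any other gene were Runx1, whose nearest were Cux1 (0.947) and Zeb2 (0.943), and Spi1, whose nearest were Slc9a3r1 (0.947) and Pstpip2 (0.929).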

How the data were processed

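Nascent RNA was sequenced from 18 libraries, grouped by the population and replicate number in the labels. The authors quantified 75-bp paired reads with Kallisto 0.43.0 (submitters' processing notes, which name GRCm38) and deposited whole-number counts per gene, not normalized. The transcript set, strand setting and treatment of introns are not given in the sources used here, so reads of antisense partners cannot be told apart. PCR products were counted with no molecular identifiers, so intervals and limits cover counting error only.

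Counts were tested with edgeR 4.0.16 in R 4.3.3 (glmQLFit and glmQLFTest, two-sided, TMM, filterByExpr by population). The 15 erythroid libraries gave 16555 genes and all 18, used for Lin+, 17755. DESeq2 1.42.0 was an alternative, and the script was tested on simulated data. Where all libraries of a population held 0, fold changes were set against 3 counts per library, and fitted changes of such genes were not printed. Ratios used 0.5 added to counts. Coordinates and promoters are RefSeq GRCm38.p6, and transcript lengths and shared 31-base words come from an annotation of an older build. Nothing states that replicates came from separate embryos, so p-values measure the spread between these samples. Same-numbered libraries deviated together: in S0-Low and S0-Medium, S0-Low and S1, S0-Medium and S1, S1 and S2, and S2 and S3 every correlation of deviations was over 0.1 (0.111 to 0.408), and blocked values are given where they changed a call. The other pairs compared with S0-Low or S3 did not meet this. The 10 genes and the gene lists were chosen with earlier results of these data known. Genes outside the 10 were named as the 3 most abundant of each list, plus the partners of the ratios and list members counted in groups of 5 or fewer, and as the 2 nearest genes by r, of which 1 is not reported here. Alternatives were another scaling, no filter, at least 10 counts in every library, the block, all 18 libraries, DESeq2, other pseudocounts and each library left out. Other scalings of the lists and of the shares kept in S2 and S3, and the shares kept in S0-Medium and Lin+ taken without single libraries, were added after seeing the data.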

Additional observations from a re-analysis of the deposited data

How the results depend on the processing

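Direction and call held for most of the values recomputed: of 231 values of single genes (leaving aside the fits without 1 library), 203 kept both, 23 newly passed, 3 moved and 2 turned, and of 90 counts and other summary values 70 held, 19 moved and 1 turned. Counts of the 10 genes that passed moved most. Without the filter, 1 passed in S0-Medium against S0-Low, 7 in S1 against S0-Medium, 4 in S2 against S1 and 10 in S1 against S0-Low (0.0346%, 0.848%, 0.208% and 2.74% of all genes fell). DESeq2 gave 2, 5, 1 and 10 for these (0.154%, 2.46%, 0.835% and 7.92%). The replicate block gave 2 from S0-Medium to S1 (0.175%) and 10 from S0-Low to S1 (3.23%), and all 18 libraries gave 2 from S0-Medium to S1 (0.681%). From S2 to S3, 1 passed (Sox4) with RLE scaling (5.82%) and 1 (Myb) with at least 10 counts in every library (7.61%). That filter removes genes at 0 and left few of the 10 in the fit: 3 passed in S2 (4 tested, 3.02% of all genes), 3 in S3 (3 tested, 19.3%), 3 in Lin+ against S3 (3 tested, 42% in either direction) and 2 for any change (2 tested, 27.1%). With the block Runx1 also passed in S2 and in S3 (adjusted p = 0.0199 and 0.0253, edgeR), and no other count moved by over 1.5 times. For S0-Low with S2, S3 and Lin+ and for S3 with Lin+, at least 1 correlation of same-numbered libraries was at or under 0.1 (0.035 to 0.179 in all), although each library correlated best with its own number. For Lin+ against S0-Low, the log2 change of Hlf was 0.01 and that of Mecom 0.19 with the block, from -0.16 and -0.41. The cause of these shifts was not tested. The Erg to Fli1 ratio of S3 against S0-Low, with both genes near 0 in S3, was -0.04 and became 0.27 with 1 added to counts. Of the 20 nearest genes, 12 were found again with a pseudocount of 0.1 and 8 over the 15 erythroid libraries.

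With each library left out in turn, the number of genes that passed was 3 to 5 in S1, 8 to 9 in S2 and in S3, 1 to 3 from S2 to S3, 8 to 10 for any change and 10 for Lin+ against S3. For Lin+ against S0-Low the log2 change ran from -1.29 to 0.30 for Hlf, from -0.75 to 0.37 for Mecom, from -0.38 to 0.48 for Erg and from -1.45 to -0.21 for Sox4, and the Erg to Fli1 difference in S3 from -0.86 to 1.33. At least 2 of 3 libraries held 3 counts or fewer for Mecom, Hlf and Erg in S2 and for these, Fli1, Sox4 and Gata2 in S3, which limits what can be said there.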
